A study of Sus scrofa with 8 samples.

Results

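AP-1 is a family of dimeric transcription factors built from FOS, JUN, ATF and BATF proteins, and the small MAF proteins are related partners that bind DNA through the same kind of basic leucine zipper. Of 10 such genes listed for this account (FOS, FOSB, FOSL2, JUN, JUNB, JUND, ATF3, MAFF, MAFK and BATF), 9 had a row among the 14718 genes of the deposited table, found by their symbols. JUND had none and was not analysed here. Of the 9, 8 passed a filter of at least 10 normalized counts in at least 4 libraries, as did 11660 genes in all, and each of the 8 had over 10 normalized counts in every library, so none was kept through 1 group alone. BATF did not pass.

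RNA was sequenced from left ventricle of 8 pigs, 4 wild type (WT, replicates 1 to 4, which are pigs 1, 2, 4 and 5 in the labels) and 4 gene-edited (mutant replicates 1 to 4, pigs 6 to 9). The genotype label of mutant replicates 1 to 3 is a KCNH2 mutation and that of mutant replicate 4 reads KCNH3 mutation. The series design speaks of KCNH2 only, so the group is called mutant here. Values given one per library run from replicate 1 to replicate 4. KCNH2 encodes the pore of the rapid delayed rectifier potassium channel, and its loss of function causes long QT syndrome. The labels give no allele, zygosity, age, sex, litter or collection time. A difference in age, sex, litter or collection time could therefore not be told apart from genotype. The p-values set the difference between groups against the spread between these samples within a group, which may be technical in part.

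The deposited values are normalized counts, a gene's reads divided by 1 size factor per library, and whole reads could be recovered from them. Libraries held 16.8 to 21.6 M reads in WT and 15.9 to 22.4 M in mutant (M is the SI prefix mega). Cardiomyocyte markers were high in every library (summed normalized counts of 7 markers 470164 to 548595 in WT and 512577 to 692703 in mutant). Mitochondrially encoded genes took 31.7% to 87.9% of WT reads and 15.9% to 27.5% of mutant reads. Every WT share lay above every mutant share, so this share and genotype cannot be told apart. WT replicate 3 stood apart, with the highest share and 2.53 M nuclear reads, so that 1 of its reads was worth 4.84 normalized counts against 0.611 to 1.21 elsewhere. WT replicate 4 came next, with a share of 65.2% and 7.53 M nuclear reads, and both were also left out together. KCNH2 itself stood at 901 ± 754 normalized counts for WT and 1538 ± 495 for mutants (SD, n = 4), and this level does not check the edit.

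Many FOS and JUN family genes are immediate early genes: their promoters are held ready and respond within minutes to growth factor, stretch, calcium and stress signals through MAP kinases, SRF and CREB. JUN proteins can pair with each other or with FOS proteins, whereas FOS proteins need a JUN partner, and the pair binds AP-1 sites in genes of matrix turnover, inflammation and growth. Small MAF proteins lack a transactivation domain and act by pairing with NFE2L2, BACH1 and related factors at antioxidant response elements. In heart tissue these genes are known to be induced by pressure load, ischaemia and the handling of tissue.

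The genes were chosen with the mutant against WT contrast already known. Their differences are therefore given as values with standard errors (SE), without a test. All 8 genes that passed the filter had lower means in mutant than in WT libraries, with log2 differences from -2.78 for FOSB to -0.18 for MAFK. Among all genes tested 43.1% differed below 0 and 56.9% above. Differences below -1 were found for 5 of the 8 (FOSB, JUNB, MAFF, FOS and ATF3). FOSL2, JUN and MAFK differed by less than 1 on the log2 scale. The median over the 8 was -2.24, beside 0.12 over all 11660 genes, of which 6.42% had a difference below -1. The median of all genes was 0.16 after TMM rescaling, 0.20 after scaling to nuclear reads and -0.05 in DESeq2, so differences of that size change with the scaling. Fewer cells of a type and less RNA per cell cannot be told apart in these tissue samples.

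**Figure D1:**
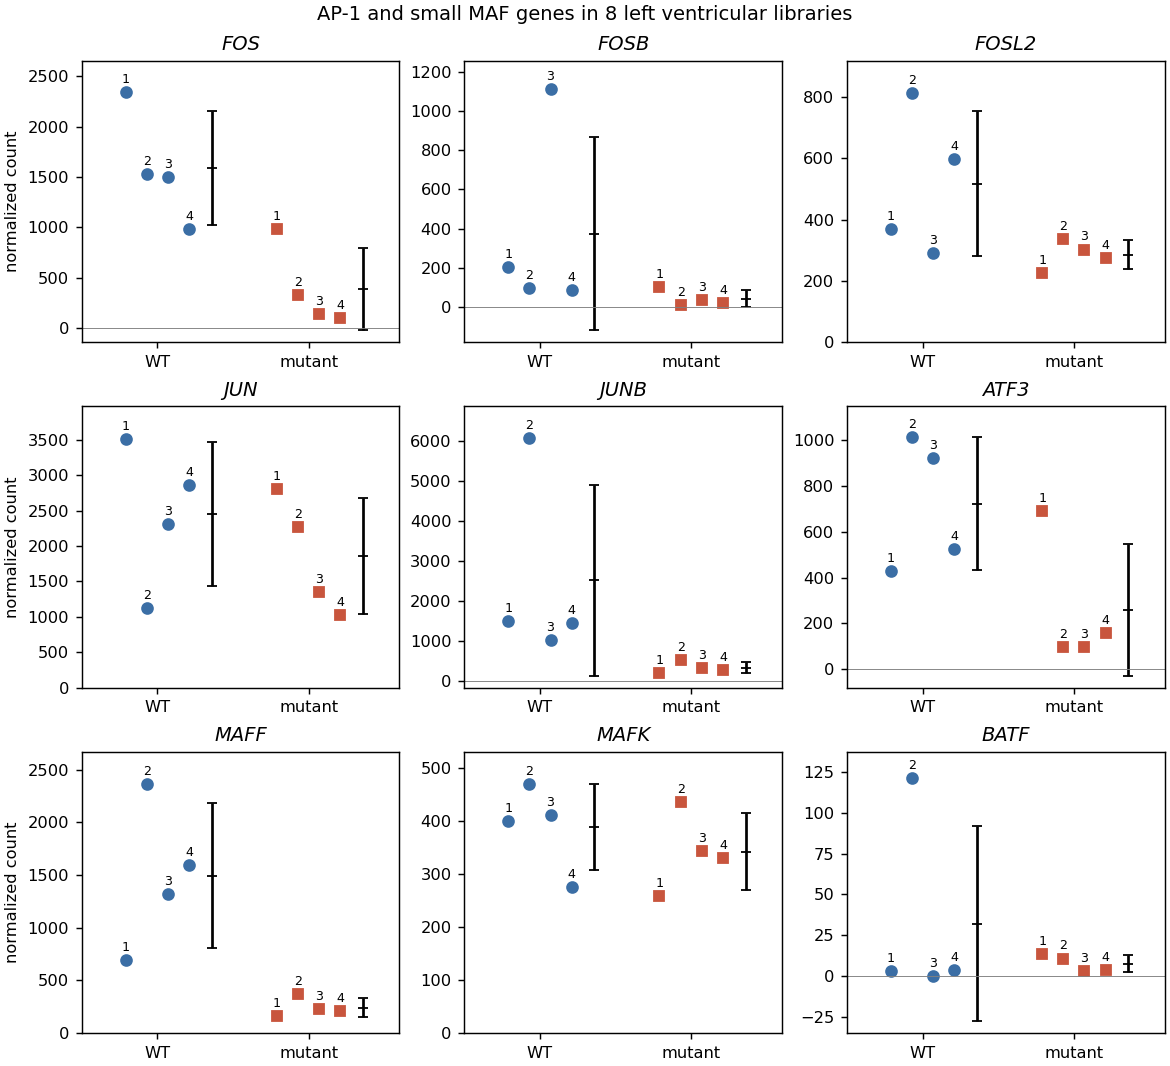
Normalized counts (linear axis) of the 9 measured genes in 4 WT (blue circles) and 4 mutant (red squares) libraries; digits give the replicate and black bars the group mean ± SD. JUNB and MAFF have no overlap between the groups, while in FOS, FOSB and ATF3 mutant replicate 1 lies above the lowest WT library.

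Among the FOS proteins, FOS is the founding member and its transcript is among the fastest to appear and decay after a stimulus. FOS had 2347, 1532, 1502 and 980 normalized counts across the WT libraries and 985, 325, 142 and 97.3 across the mutant libraries. Mutant replicate 1 lay just above WT replicate 4, and the other 3 mutant libraries lay below all WT libraries. The WT mean was 1590 ± 564 and the mutant mean 387 ± 410 (SD, n = 4), and the log2 difference was -2.55 ± 0.64 (SE). Without mutant replicate 1 it was -3.19, and without mutant replicate 4, the library labelled KCNH3, it was -2.08. Within the mutant group alone FOS spanned a 10.1-fold range, against 2.39-fold in WT.

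FOSB, a close relative of FOS that also gives rise to the long-lived ΔFosB isoform, had the lowest difference but also the widest spread. FOSB stood at 205, 100, 1109 and 87.4 normalized counts across the WT libraries and 105, 10.6, 35.0 and 19.9 across the mutant libraries. The high WT value came from replicate 3, where it rested on 229 reads. Mutant replicate 1 lay within the WT range and the other 3 below it. The log2 difference was -2.78 ± 0.92 (SE), and -1.98 without WT replicate 3. Isoforms cannot be separated in a count per gene.

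FOSL2 encodes FRA-2, a FOS protein without the strong transactivation domain of FOS, and its difference was smaller. The WT libraries had 370, 812, 291 and 598 normalized counts and the mutant libraries 227, 337, 302 and 275. The groups overlapped because WT replicate 3 lay below mutant replicates 2 and 3. A log2 difference of -0.76 ± 0.34 (SE) resulted, and -0.50 without WT replicate 2, the highest library. Mutant libraries were close together, spanning 1.49-fold against 2.79-fold in WT.

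Of the measured JUN genes, JUN overlapped between the groups and JUNB did not. JUN, the strongest activator of the family, had 3516, 1130, 2306 and 2862 normalized counts across the WT libraries and 2804, 2270, 1346 and 1027 across the mutant libraries. The groups overlapped over most of their range, and only mutant replicate 4 lay below the lowest WT library. The log2 difference of JUN, -0.39 ± 0.43 (SE), was smaller than its SE. It was -0.14 without mutant replicate 4 and -0.73 without WT replicate 2.

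JUNB, a weaker activator that can hold JUN activity in check, separated the groups. It had 1503, 6083, 1037 and 1460 normalized counts across the WT libraries and 206, 524, 339 and 273 across the mutant libraries. All mutant values were below all WT values, although WT replicate 2 was far above the next WT library. The means were 2521 ± 2384 and 336 ± 137 (SD, n = 4), and the log2 difference was -2.60 ± 0.53 (SE). Without WT replicate 2 it was -2.05.

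ATF3, a stress-induced member of the ATF branch that represses transcription as a homodimer, followed FOS in having 1 high mutant library. The WT libraries had 427, 1017, 925 and 523 normalized counts, and the mutant libraries 690, 94.9, 95.1 and 158. Mutant replicate 1 lay between WT libraries, and the other 3 lay below them all. The log2 difference was -1.93 ± 0.62 (SE), or -2.58 without mutant replicate 1.

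BATF, an AP-1 protein best known from lymphocytes and other leukocytes, was nearly silent except in 1 library. WT replicate 2 had 141 reads (122 normalized counts). The other WT libraries had 4, 0 and 3 reads, and mutant replicates 1 to 4 had 22, 14, 4 and 5. The count of 0 in WT replicate 3 allows up to 3 reads, which are 14.5 normalized counts there, so a level as in mutant replicates 1 and 2 was not detectable at this depth. No difference is given for BATF, whose WT mean rests on that single library.

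Of the small MAF genes, MAFF separated the groups and MAFK did not. MAFF, the stress-inducible small MAF, had 695, 2363, 1323 and 1597 normalized counts across the WT libraries and 164, 366, 225 and 212 across the mutant libraries. The groups did not overlap. The WT mean was 1494 ± 692 and the mutant mean 242 ± 87.0 (SD, n = 4). MAFF had the smallest SE of the 5 genes below -1, at a log2 difference of -2.56 ± 0.39 (SE) that stayed between -2.88 and -2.29 when any 1 library was left out.

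MAFK, another small MAF, had 400, 470, 412 and 275 normalized counts across the WT libraries and 258, 437, 344 and 331 across the mutant libraries. These ranges almost coincided. The log2 difference was -0.18 ± 0.26 (SE), with MAFK at 389 ± 81.8 and 343 ± 73.2 normalized counts (SD, n = 4).

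**Figure D2:**
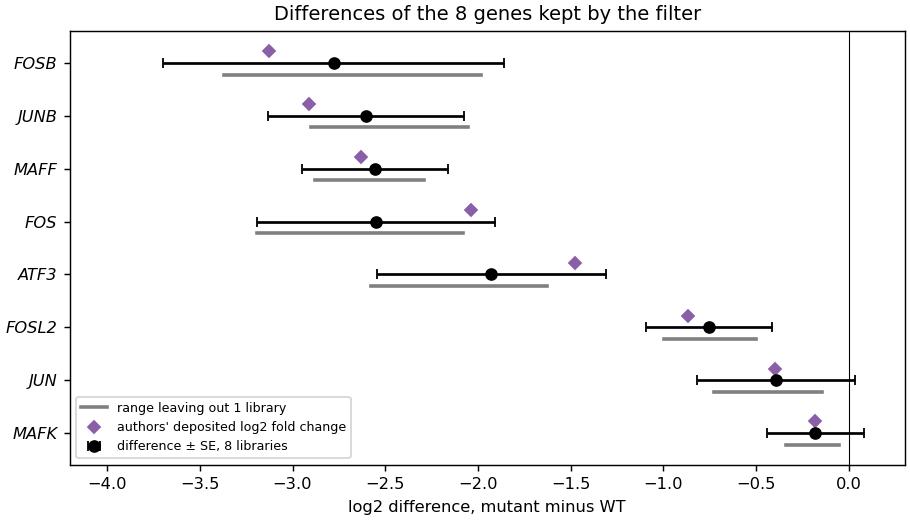
Log2 difference, mutant minus WT, of the 8 genes kept by the filter (black points with SE, limma on 8 libraries), the range over fits that leave out 1 library (grey lines), and the log2 fold change of the authors' deposited table (purple diamonds). FOSB, JUNB, MAFF, FOS and ATF3 lie below -1 in each of these, and MAFK and JUN lie nearest to 0.

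Of the 8 genes, 2 (JUNB and MAFF) had every mutant library below every WT library, an arrangement found in 5.22% of all genes tested. Leaving out libraries can only keep or raise such a count. It was 5 without mutant replicate 1 (FOS, FOSB and ATF3 joined), when 7.31% of all genes had this arrangement, and 4 without WT replicates 3 and 4 together (FOS, FOSL2, JUNB and MAFF), when 13.9% had it. The reverse arrangement, every mutant library above every WT library, was found in 0 of the 8 and in 6.17% of all genes. In limma 0 of 11660 genes passed an adjusted p of 0.05, the members included, and 1616 genes (13.9%) had an unadjusted p under 0.05, among them 5 of the 8 members. In edgeR 0 of 11878 genes passed (1730, or 14.6%, at an unadjusted p under 0.05). DESeq2 on the recovered reads called 582 genes, 3.24% of those with an adjusted p lower and 1.32% higher, and 4 members were among them, all lower. The authors' deposited table calls 4 of the 8 members lower (MAFF, JUNB, FOSB and FOS), and none higher, in a table where 3.23% of genes with an adjusted p are called lower and 1.32% higher. Its log2 fold changes were -2.63 for MAFF, -2.91 for JUNB, -3.13 for FOSB and -2.04 for FOS, and it gives BATF no adjusted p. Since the genes were chosen on this contrast, nothing is read from these counts.

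The spread within a group comes from the same libraries as the contrast on which the genes were chosen, so it is not free of that choice. It differed between the genes. The pooled within-group SD on the log2 scale was 1.53 for FOSB, 1.10 for FOS, 1.05 for ATF3 and 0.89 for JUNB, and lower for JUN (0.69), MAFF (0.62), FOSL2 (0.50) and MAFK (0.32). Set beside the 500 genes nearest in mean level, FOS, FOSB and ATF3 had a larger SD than 92.2% to 94.6% of them, JUNB than 88.2%, and MAFK than 21%. JUN, MAFF and FOSL2 lay in between, at 56.6% to 77.6%. Against all genes tested the shares were lower for each gene, from 85.6% for FOSB and 78.3% for FOS to 15.8% for MAFK.

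Within the mutant group the genes ranked the libraries in contrasting ways. JUNB, MAFF, FOSL2 and MAFK were each highest in mutant replicate 2, then 3, then 4, and lowest in replicate 1. FOS, JUN, FOSB and ATF3 were each highest in mutant replicate 1, and FOS and JUN then ran through replicates 2, 3 and 4 in order. In WT, replicate 2 was the highest library for JUNB, MAFF, FOSL2, MAFK and ATF3, and the lowest for JUN. These groupings of genes were seen in the values and were not tested.

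**Figure D3:**
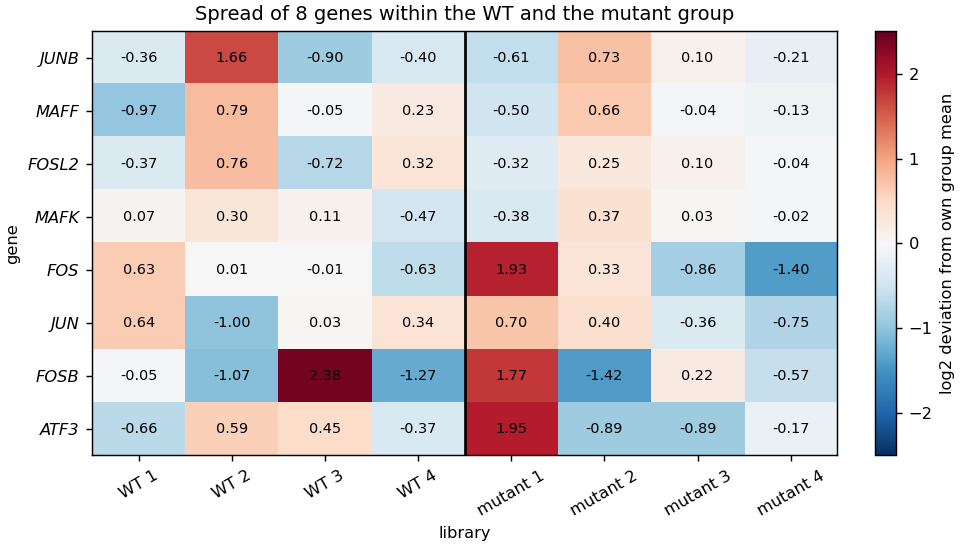
Log2 deviation of each library from the mean of its own group, for 8 genes (rows) and 8 libraries (columns; the black line divides WT from mutant); red is above and blue below the group mean. Among the mutant libraries the upper 4 genes are lowest in replicate 1, where the lower 4 are highest. Over all 8 columns FOSB in WT replicate 3 has the largest deviation, 2.38.

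Within the mutant group, summed neutrophil markers had the library order of the first of these groupings. Of 6 neutrophil markers 4 had a row (S100A8, S100A12, CSF3R and MPO), and their summed normalized counts were 96.9, 2198, 150 and 63.1 across the WT libraries and 14.1, 320, 121 and 110 across the mutant libraries. The order of the mutant libraries in this sum is the same as in JUNB, MAFF, FOSL2 and MAFK, and WT replicate 2 is the highest WT library in both. The full order of the WT libraries matched the sum for MAFK and not for JUNB, MAFF or FOSL2. S100A8 was at 0 in WT replicate 3, and MPO was at 0 in 6 libraries. S100A8 alone ordered mutant replicates 3 and 4 the other way, at 27.2 and 27.8 normalized counts. The part of neutrophil RNA in these levels was not tested. For FOS and JUN, the order of the mutant libraries was that of their mitochondrial read shares (27.5%, 19.9%, 16.7% and 15.9%). It was also that of the summed cardiomyocyte markers (692703, 618980, 547517 and 512577 normalized counts). In WT neither order matched FOS or JUN, and the parts of that share and of cardiomyocyte content were not tested either. Macrophage markers (8 genes) summed to 791, 1048, 1826 and 4795 normalized counts across the WT libraries. Across the mutant libraries they summed to 1511, 4113, 2156 and 1999. This order of the mutant libraries is also that of the neutrophil sum, so the match is not particular to neutrophil markers. In WT the macrophage sum was highest in replicate 4, and the part of macrophage RNA was not tested. Red cell markers (4 genes) summed to 17493, 31360, 28563 and 49.7 normalized counts across the WT libraries and to 2496 to 2966 for mutants, and their part in the members' levels was not tested.

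**Figure D4:**
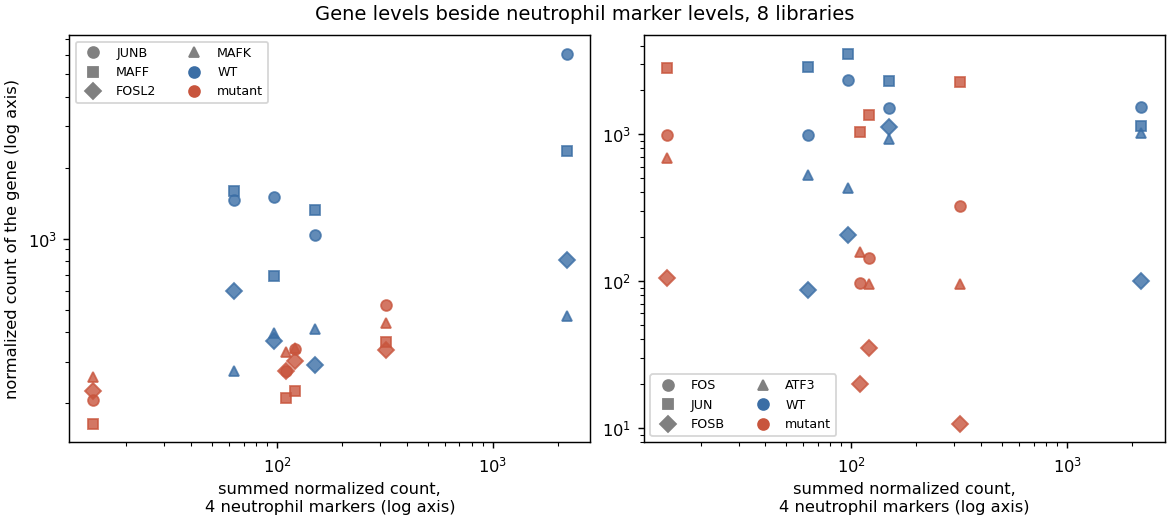
Normalized counts (log axes) of JUNB, MAFF, FOSL2 and MAFK (left) and FOS, JUN, FOSB and ATF3 (right) against the summed normalized count of 4 neutrophil markers in each library, WT in blue and mutant in red. On the left mutant points climb with the marker sum from 14.1 to 320, and the WT points of JUNB and MAFF lie above all of their mutant points.

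The genes around AP-1 were described from 5 lists, and none of their members passed limma over all genes. The lists, like the members, were chosen with earlier results of these data known. Their counts and p-values are therefore a description, not independent support for the members' differences. Beside these counts, 6.8% of all genes tested were lower and 7.06% higher at an unadjusted p under 0.05. In edgeR no gene of these lists passed.

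Other AP-1, CNC and MAF partners are mostly factors with which the 9 genes share dimers or sites. Of 21 tested members of this list, 12 were lower and 9 higher. The median log2 difference was -0.20 and changed sign with single libraries left out, to 0.07 (WT replicate 2) and 0.05 (WT replicate 4). At an unadjusted p under 0.05, 1 was lower and 2 were higher. ATF4, the effector of the integrated stress response, averaged 7199 ± 3867 normalized counts for WT and 2338 ± 448 for mutants (SD, n = 4; limma adjusted p = 0.258), and it is the only gene of this list that the authors' deposited table calls. Its log2 difference of -1.42 was -0.71 without WT replicates 3 and 4. ATF7, a JUN partner, had a log2 difference of 0.82 ± 0.31 (SE) with groups that did not overlap, and 0.51 without WT replicate 3. CREB5 had one of 2.21 ± 0.84 (SE), or 1.00 without WT replicates 3 and 4. JDP2, a repressor that pairs with JUN, differed by -0.76 ± 0.41 (SE), and by -0.45 without mutant replicate 2. The small MAF paralogue MAFG differed by -0.50 ± 0.36 (SE), its partners NFE2L2 and BACH1 by -0.66 ± 0.38 (SE) and -0.11 ± 0.31 (SE).

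Kinases and factors upstream of AP-1 had a median log2 difference of 0.23, with 10 of 29 tested members lower and 19 higher, and 1 lower and 2 higher at an unadjusted p under 0.05. MAP2K1, which encodes the ERK kinase MEK1, had the smallest p, with a log2 difference of 0.87 ± 0.30 (SE; limma adjusted p = 0.280), or 0.51 without WT replicates 3 and 4. MEF2C, a cardiac factor that acts on the JUN promoter, averaged 749 ± 256 normalized counts for WT and 1153 ± 111 for mutants (SD, n = 4), without overlap, and its log2 difference of 0.69 was 0.43 without WT replicate 4. MAPK7, which encodes ERK5, lay lower in every mutant library, at -0.53 ± 0.22 (SE) on the log2 scale. The p38α gene MAPK14 differed by 0.85 ± 0.43 (SE), but by 0.35 without WT replicate 3. The ERK1 gene MAPK3 had a log2 difference of 0.01 ± 0.26 (SE), the JUN kinase MAPK8 one of 0.43 ± 0.23 (SE), and SRF one of 0.51 ± 0.63 (SE). The authors' deposited table calls no gene of this list.

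Genes of AP-1 protein turnover, which act on the stability of JUN and its relatives, had a median log2 difference of 0.09 over 8 genes. Of these, 2 were lower and 6 higher, and 0 had an unadjusted p under 0.05 in limma. FBXW7, a ubiquitin ligase subunit that recognizes JUN, had the smallest p at -1.19 ± 0.58 (SE). That value rested on WT replicate 4, which had 9544 normalized counts against 1232 to 3222 in the other WT libraries, and it was -0.58 without that library.

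Textbook AP-1 target genes had 13 of 15 tested members lower and 2 higher. Their median log2 difference was -0.99, and 4 were lower at an unadjusted p under 0.05. SPP1 (osteopontin) averaged 382 ± 243 normalized counts for WT and 73.7 ± 20.1 for mutants (SD, n = 4; limma adjusted p = 0.206), without overlap. TIMP1, an inhibitor of matrix metalloproteinases, differed by -1.99 ± 0.70 (SE), and by -1.20 without WT replicate 2. PLAU (urokinase) differed by -0.99 ± 0.40 (SE). The authors' deposited table calls 4 of the 15 genes to which it gives an adjusted p lower, among them SPP1, TIMP1 and PTGS2. PTGS2 was by far highest in WT replicate 2, at 1166 normalized counts against 0 to 135 in the other WT libraries, and its groups overlapped. Without WT replicate 2 the median of the list was -0.62.

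The other 10 AP-1 targets with a row did not pass the filter. Among them, singled out after their values were seen, the cytokine gene IL6 had 3077 normalized counts in WT replicate 2 and 0 to 8.49 in the other 7 libraries. The neutrophil-attracting chemokine gene CXCL8 had 1770 in WT replicate 2 and 0 to 30.3 elsewhere. That library also held most BATF reads, the highest JUNB, MAFF, FOSL2, MAFK and ATF3 levels and the highest neutrophil and red cell marker sums. It had the lowest JUN level of the WT libraries. The target gene MMP9, also below the filter, was higher in WT replicate 4 (126 normalized counts) than in WT replicate 2 (102).

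Antioxidant response genes, read by small MAF proteins with NFE2L2, had 11 of 17 tested members lower and 6 higher, a median log2 difference of -0.41, and 4 lower with 0 higher at an unadjusted p under 0.05 in limma. OSGIN1 averaged 280 ± 115 normalized counts for WT and 53.3 ± 20.6 for mutants (SD, n = 4), without overlap (log2 difference -2.33 ± 0.47, SE; limma adjusted p = 0.172). FTL, the ferritin light chain, had 10668 ± 6016 and 3882 ± 1440 normalized counts (SD, n = 4), with overlap, and its reads may be shared with ferritin copies. PGD, an enzyme of the pentose phosphate pathway, differed by -0.88 ± 0.34 (SE). Without WT replicates 3 and 4 the differences were -0.69 for FTL and -0.40 for PGD. NQO1 and HMOX1, the best known genes of this response, had log2 differences of -0.19 ± 0.44 (SE) and -0.57 ± 0.54 (SE). The authors' deposited table calls FTL and OSGIN1 lower and no gene of the list higher.

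**Figure D5:**
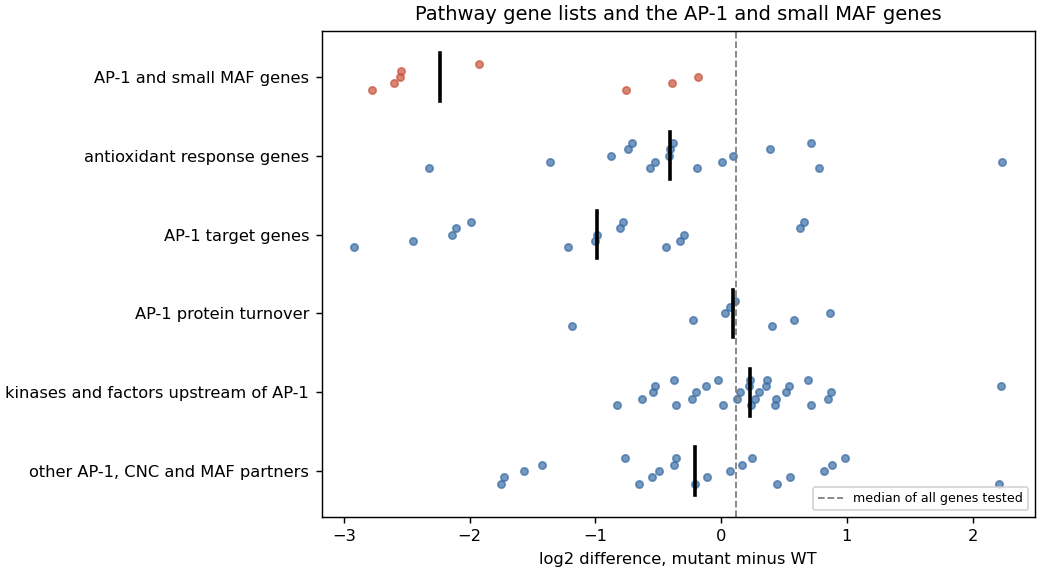
Log2 difference, mutant minus WT, of every tested gene (points) of 5 pathway lists (blue) and of the 8 AP-1 and small MAF genes (red), with the median of each list as a black bar and the median of all genes tested, 0.12, as a dashed line. Medians lie at -0.99 for AP-1 targets and -0.41 for antioxidant response genes, and between -0.20 and 0.23 for the other 3 lists, against -2.24 for the members.

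Genes whose levels followed the members most closely were sought among the 10114 others with a mean of at least 50 normalized counts. Likeness was Pearson's r over the 8 libraries with the member score, the mean over the 8 members of each log2 value centred and divided by its SD. The score was 0.57, 0.89, 0.64 and 0.39 across the WT libraries and -0.37, -0.38, -0.78 and -0.96 across the mutant libraries, so a gene that separates the groups tends to score high, and the r values are a description. The closest were FKBP8 (r = 0.98), a mitochondrial immunophilin, TSEN34 (0.98), a subunit of the tRNA splicing endonuclease, EGR2 (0.96), FBXO6 (0.96), SH3GLB2 (0.96) and the RNA helicase gene MOV10 (0.95). EGR2, itself an immediate early transcription factor, had 115, 195, 111 and 116 normalized counts across the WT libraries and 34.4 to 42.9 for mutants. The most opposite were C6orf89 (r = -0.99), SMG6 (-0.97), a nuclease of nonsense-mediated decay, and CBX6 (-0.97), a Polycomb chromobox protein. C6orf89 ran from 330 to 427 normalized counts in WT and from 518 to 599 in mutant libraries. None of these 9 genes passed limma over all genes (adjusted p = 0.142 to 0.290).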

How the data were processed

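Left ventricular RNA of 8 pigs was measured by sequencing of polyadenylated RNA, from libraries primed with random hexamers, per the labels' protocols. The single deposited table gives, per the file headers, a signal per gene and library, which is a normalized count, beside the authors' mean signal, a log2 fold change and its error, a test score, and a p-value before and after adjustment. The tool was DESeq2 and the build GRCh38, per the submitters' processing notes, although the samples are from pig. What aligner, counter, annotation and strand setting were used is not stated in those sources. No coordinates are printed, and antisense partners cannot be told apart.

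All values (100%, within 1e-06 reads) were whole multiples of 1 read, so reads were recovered. Of 14720 rows, 2 name no gene and were left out (0.392% to 0.853% of reads). Values were taken as log2(normalized count + 1), which understates differences of low genes, for genes with at least 10 in at least 4 libraries, and fitted with limma 3.58.1 (trended, robust prior, R 4.3.3; Benjamini-Hochberg over all genes kept). edgeR 4.0.16 (quasi-likelihood) and DESeq2 1.42.0 were run on the recovered reads. These fits were run on simulated data with planted differences, as a check on the size of the estimates only. Differences in mitochondrial share between libraries were not simulated. Shares of reads have Wilson 95% intervals of at most ± 0.0223 percentage points, and intervals and floors cover counting error only.

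The members and lists were chosen with earlier results of these data known. Named genes are all members, up to 4 of each list with the smallest p, the 6 genes most like and the 3 most unlike the member score, and others of the lists where their role is described. Some genes that this rule takes are not reported here. Alternatives were other pseudocounts, filters, scalings, priors and tools, and leaving out libraries. A planned search of promoter and protein sequences was not run. The cell type lists not described in the text (fibroblast, endothelial, smooth muscle, T and NK cell, B cell, adipocyte and Schwann cell) had 0 genes past limma at an adjusted p of 0.05. Since 0 of all 11660 genes passed, this does not show equal cell content. The B cell list had 0 tested genes, and the T and NK cell and adipocyte lists had 1 each. Fibroblast marker sums ran from 6699 to 117078 normalized counts in WT and from 26652 to 72571 in mutant libraries.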

Additional observations from a re-analysis of the deposited data

Results flagged for a closer look

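In 4 of 18 groups of 4 libraries (9 genes, WT and mutant), 1 library lay far from the other 3 on the scale of normalized counts, with a gap to the nearest that took more of the group's range than Dixon's 95% critical value allows. For independent, normally distributed values such a gap comes in about 1 in 20 groups. The 18 groups share the same 8 libraries and counts need not be normally distributed, so that rate cannot be applied here. On the log2 scale none of the 18 groups had such a gap. FOSB had 1109 normalized counts in WT replicate 3, JUNB 6083 in WT replicate 2, ATF3 690 in mutant replicate 1 and BATF 122 in WT replicate 2.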

How the results depend on the processing

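No paired analysis was possible because the labels number the pigs separately and no number is shared between the groups. Over 20 alternatives the log2 difference of each of the 8 members kept by the filter stayed below 0. The members' median of -2.24 was -1.76 in edgeR, -1.76 in DESeq2 and -1.88 to -2.39 with any 1 library left out. The count of members without overlap, 2, was 2 to 5 with 1 library left out and 4 without WT replicates 3 and 4 together, and such a count cannot fall when libraries are left out. The number of genes past limma, 0 of 11660, was 0 to 3 with 1 library left out, 12 without WT replicates 3 and 4 together, 3 after quantile rescaling and 92 with array quality weights, and DESeq2 called 582, with the causes of these shifts not tested. The medians of the 5 pathway lists moved by less than the spread of their scores between libraries. In WT replicate 3 the low number of nuclear reads limits what can be seen of low genes such as BATF.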
